A study of Rattus norvegicus with 6 samples.

Results

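A set of 9 transcripts of myelin and of the cells that make it were followed in macrophages sorted from rat brain: *Mbp*, *Mobp*, *Mog*, *Mag*, *Cnp*, *Ermn*, *Mal*, *Cldn11* and *Opalin*. They were matched by symbol in the array annotation, using only probe sets that name exactly 1 gene, and are 9 of the 14217 genes named in this way. Together they have 17 probe sets. All 17 were read, and each gene was summarised by its probe set with the highest mean over the 6 arrays.

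The arrays were hybridized with RNA of CD11b+CD163+ cells, border-associated macrophages (BAMs) that lie around vessels and in the meninges, taken from the right brain hemisphere of adult male Sprague-Dawley rats. The ischemia group had 3 rats (64, 65 and 66), which underwent 1 h of occlusion of the right middle cerebral artery followed by 16 h of reperfusion, and the control group had 3 non-ischemic rats (63, 68 and 69). Each array was 1 rat, and no rat of one group was paired with one of the other. In all 6 rats the tissue was dissociated, passed over a Percoll gradient meant to take away myelin and debris, and sorted on both surface markers.

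Myelin is the stack of membrane that oligodendrocytes wrap around axons in the central nervous system. Its compact layers are held together by basic proteins, and its edges, its outer surface and the face next to the axon carry their own adhesion and junction proteins. Some myelin mRNAs, that of *Mbp* best known among them, are carried out along oligodendrocyte processes and translated where the membrane is laid down. Macrophages are not known to make myelin, whereas they can take up its debris.

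All 9 genes had a lower mean after ischemia, and 3 of them fell at an adjusted p under 0.01: *Mbp*, *Mobp* and *Ermn*. Adjusted p-values throughout are two-sided and come from limma's moderated linear model with Benjamini-Hochberg correction over the 9928 genes tested, and "rose" and "fell" are kept for genes with that p under 0.01. Of those 9928 genes, 5.99% fell and 16.8% rose by the same rule. None of the 9 genes rose, and 0 of them was higher at an unadjusted p under 0.05, while 7 were lower. The share of all genes at that unadjusted p is not given for this fit, here or for the lists below. At an adjusted p under 0.05, 13.9% of the genes tested were lower and 27.4% were higher. The median log2 fold change (ischemia minus control) of the 9 genes was -1.82, and that of all genes tested was 0.10. *Opalin* was too dim to be tested, and *Mog*, *Mag* and *Ermn* passed the low-signal filter through their control arrays, with 0, 1 and 1 ischemic arrays over it. The count of genes that fell is therefore a description of 8 tested genes, not a test of the group. In RNA of a sorted population, fewer cells of a type and less RNA per cell cannot be told apart. The difference between 3′ and 5′ probe sets, a sign of RNA quality, was also unlike in the groups, at 0.17 to 0.24 log2 units for actin in ischemic rats and 0.058 to 0.073 in controls, and at 0.75 to 0.80 for GAPDH in ischemic rats and 0.52 to 0.65 in controls. The paper states that the RNA samples were selected for high RNA integrity and that all arrays were of good quality. The part of the 3′ to 5′ difference in the result was not tested.

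**Figure D1:**
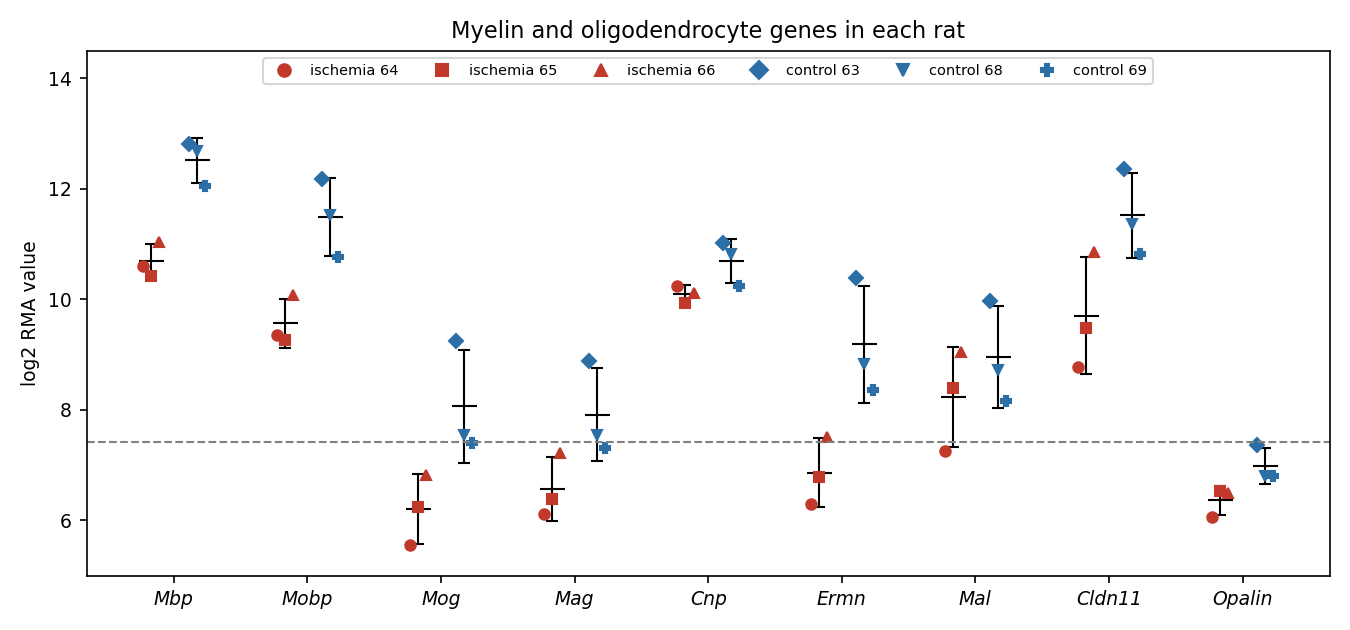
Log2 RMA value of each of the 9 genes (x axis) in each rat, ischemia in red left of control in blue, with the mean (long bar) and SD (error bar) of the 3 rats. The dashed line at 7.42 is the background level set by genes of other tissues. Control 63 is the highest control in all 9 genes, and in *Mal* and *Cldn11* the groups overlap.

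The first genes described are those of compact myelin. *Mbp* encodes myelin basic protein, which draws the cytoplasmic faces of the membrane together. Its value was 10.60, 10.43 and 11.04 in ischemic rats 64, 65 and 66, against 12.81, 12.68 and 12.06 in control rats 63, 68 and 69. The groups were well apart, with 1.02 log2 units between the highest ischemic rat and the lowest control. The mean was 10.69 ± 0.32 after ischemia and 12.52 ± 0.40 in controls (SD, n = 3 each). *Mbp* fell by 1.83 on the log2 scale (SE 0.24, adjusted p = 0.00113), which is a signal 3.55-fold lower after ischemia. *Mbp* stayed past the threshold without any 1 rat (adjusted p between 0.00172 and 0.00683).

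*Mobp* encodes another small basic protein of compact myelin. It read 9.36, 9.26 and 10.07 in ischemic rats 64, 65 and 66, against 12.18, 11.53 and 10.76 in control rats 63, 68 and 69. All 3 ischemic rats lay below all 3 controls, although ischemic rat 66 and control 69 were near each other. The log2 fold change was -1.93 (SE 0.36, adjusted p = 0.00432), a signal 3.8-fold lower. It was not past the threshold without ischemic rat 65 (adjusted p = 0.0182), control 63 (0.0131) or control 68 (0.0194).

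*Ermn* encodes ermin, a cytoskeletal protein of mature oligodendrocytes. It read 6.29, 6.79 and 7.52 in ischemic rats 64, 65 and 66, against 10.38, 8.84 and 8.35 in control rats 63, 68 and 69. The groups did not overlap, but the controls spanned 2.03 log2 units. Ischemic rats 64 and 65 were below the background level of 7.42 and rat 66 was just above it, and the gene passed the low-signal filter through its controls, so the size of the difference is set against a group mostly at background. The log2 fold change was -2.32 (SE 0.51, adjusted p = 0.00855). *Ermn* was the only one of the 9 genes to pass an adjusted p under 0.01 together with a log2 fold change beyond 2, the rule the study applied, which 0.584% of the genes tested passed as a fall. It missed an adjusted p of 0.01 without any 1 of the rats other than control 69. Without control 63, its log2 fold change was -1.73 (adjusted p = 0.0138).

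*Mog* and *Mag* encode glycoproteins of the immunoglobulin superfamily, placed on the outer surface of myelin and on the membrane facing the axon. *Mog* read 5.56, 6.25 and 6.82 in ischemic rats 64, 65 and 66, against 9.24, 7.54 and 7.40 in control rats 63, 68 and 69. *Mag* read 6.11, 6.39 and 7.22 in the ischemic rats in that order, against 8.88, 7.55 and 7.31 in the controls. For both genes every ischemic rat was below every control and below the background level of 7.42, while control 69 was just under that level too. The ischemia minus control difference was -1.85 for *Mog* (SE 0.50, adjusted p = 0.0198) and -1.34 for *Mag* (SE 0.43, adjusted p = 0.0373), neither past the threshold. Between the lowest control and the highest ischemic rat lay 0.58 log2 units for *Mog* and 0.094 for *Mag*.

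*Cnp* encodes an enzyme of non-compact myelin, a cyclic nucleotide phosphodiesterase that oligodendrocytes also make before they myelinate. It had the smallest log2 fold change of the 9, at -0.60 (SE 0.21, adjusted p = 0.0494). Its values were 10.24, 9.93 and 10.12 in ischemic rats 64, 65 and 66, against 11.02, 10.82 and 10.25 in control rats 63, 68 and 69. Only 0.0092 log2 units separated ischemic rat 64 from control 69, so the groups touched.

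*Cldn11* encodes claudin-11, which forms the tight junctions between myelin lamellae. It read 8.77, 9.48 and 10.86 in ischemic rats 64, 65 and 66, against 12.36, 11.37 and 10.83 in control rats 63, 68 and 69. Ischemic rat 66 was above control 69, so the groups overlapped. The log2 fold change was -1.82, close to that of *Mbp*, but with an SE of 0.54 the adjusted p was 0.0294.

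*Mal* encodes a lipid raft protein of membrane sorting in oligodendrocytes and in other cells. It was at 7.26, 8.39 and 9.05 in ischemic rats 64, 65 and 66, against 9.96, 8.73 and 8.17 in control rats 63, 68 and 69, a wide overlap (-0.72, SE 0.54, adjusted p = 0.308). *Opalin* encodes a transmembrane glycoprotein of oligodendrocytes. It read 6.06, 6.53 and 6.50 in ischemic rats 64, 65 and 66, against 7.37, 6.80 and 6.81 in control rats 63, 68 and 69, and no array was above background.

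Counted over the 9 genes, 7 had all ischemic rats below all controls, where 19.1% of all 14217 named genes did. At an adjusted p under 0.05, 7 of the 9 genes were lower, where 13.9% of the genes tested were. Without the low-signal filter, *Mbp* was the only one of the 9 that fell, where 3.07% of the 14217 genes did. The smallest p of an exact two-sided permutation test is 0.1 with groups of 3, so no such test is given for single genes.

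The promoters of 4 genes are shown as examples, because oligodendrocytes drive myelin genes through the transcription factors SOX10 and MYRF. Among these, *Opalin* was not tested and *Mag* was below background in every ischemic rat. The letters were not set against the size of a change. RefSeq (build GRCr8) gives 8 promoters for 7 of the 9 genes, here the 250 bases before the start of transcription. Those shown belong to *Mobp* (chr8:128746982-128747231, plus strand), *Cnp* (chr10:86011254-86011503, plus strand), *Mag* (chr1:95291045-95291294, minus strand) and *Opalin* (chr1:249858191-249858440, minus strand). Each is written 5′ to 3′ on the strand of the gene. Capitals mark a match, on either strand, to ACAAAG or ACAATG (the SOX core), CAGCTG (an E-box), or CTGGCAC or CTGGTAC (MYRF).
Mobp: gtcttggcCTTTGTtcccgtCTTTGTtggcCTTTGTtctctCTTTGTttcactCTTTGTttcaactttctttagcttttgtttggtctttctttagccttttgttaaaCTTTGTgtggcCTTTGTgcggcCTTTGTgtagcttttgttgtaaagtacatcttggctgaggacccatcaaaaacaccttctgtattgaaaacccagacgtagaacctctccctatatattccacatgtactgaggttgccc
Cnp: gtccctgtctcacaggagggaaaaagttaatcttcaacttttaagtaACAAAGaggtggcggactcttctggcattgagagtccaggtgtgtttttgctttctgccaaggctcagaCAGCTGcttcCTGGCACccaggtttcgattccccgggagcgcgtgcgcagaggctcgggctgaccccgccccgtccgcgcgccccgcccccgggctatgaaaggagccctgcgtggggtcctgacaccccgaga
Mag: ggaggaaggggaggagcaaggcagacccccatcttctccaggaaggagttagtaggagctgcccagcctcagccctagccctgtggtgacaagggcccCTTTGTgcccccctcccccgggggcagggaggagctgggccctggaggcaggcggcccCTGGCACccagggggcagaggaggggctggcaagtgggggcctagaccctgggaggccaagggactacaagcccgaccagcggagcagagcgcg
Opalin: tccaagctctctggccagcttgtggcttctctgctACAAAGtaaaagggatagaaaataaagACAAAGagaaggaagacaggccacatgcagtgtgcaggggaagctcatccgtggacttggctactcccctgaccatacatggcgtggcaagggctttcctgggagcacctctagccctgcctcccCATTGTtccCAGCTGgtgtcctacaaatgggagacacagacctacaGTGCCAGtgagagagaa

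The *Mobp* promoter holds 8 copies of ACAAAG, all on the opposite strand, a number that 2 of the 33469 promoters of this length reached (0.00598%). ACAAAG was found in 5 of the 8 promoters of these genes and in 16.3% of all promoters. ACAATG was found in 2 of the 8 (11.1% of all), and CAGCTG in 3 of the 8 (12% of all). Either of the MYRF words was found in 5 of the 8, those of *Cldn11*, *Cnp*, *Mag*, *Mal* and *Opalin*, and in 5.48% of all promoters. CTGGCAC alone was in 4 of the 8 (3.78% of all) and CTGGTAC in 1 (1.78% of all). These words do not overlap one another in the promoters shown, and a match is a description of letters only. Of the genes that fell, *Mbp* and *Mobp* had neither MYRF word in this window. *Ermn* and *Mog* were not matched.

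Probe sets of the same gene were set side by side next. Of the 17 probe sets, 13 had all ischemic rats below all controls, 3 overlapped and 1 had all ischemic rats above all controls. Over all 20826 probe sets that name 1 gene, 19.4% had all ischemic rats lower and 25.3% had all of them higher. The probe set with the ischemic rats above belongs to *Mbp*. Probe set 1383479_at read 10.79, 10.39 and 10.60 in ischemic rats 64, 65 and 66, against 10.06, 10.04 and 10.12 in control rats 63, 68 and 69. The SD of the controls was 0.041 there, and control 63 did not stand out. Its log2 fold change was 0.52 (SE 0.12), with an adjusted p of 0.0251 when limma was fitted over all probe sets.

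The remaining *Mbp* probe set, 1387341_a_at, went the way of the brightest one. It read 7.14, 7.32 and 7.47 in ischemic rats 64, 65 and 66, against 8.74, 8.32 and 7.95 in control rats 63, 68 and 69 (-1.03, SE 0.21, adjusted p = 0.0143 over all probe sets). With the 3 probe sets averaged, the log2 fold change of *Mbp* was -0.78. The positions of the probes on the transcripts are not given in the sources used here.

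**Figure D2:**
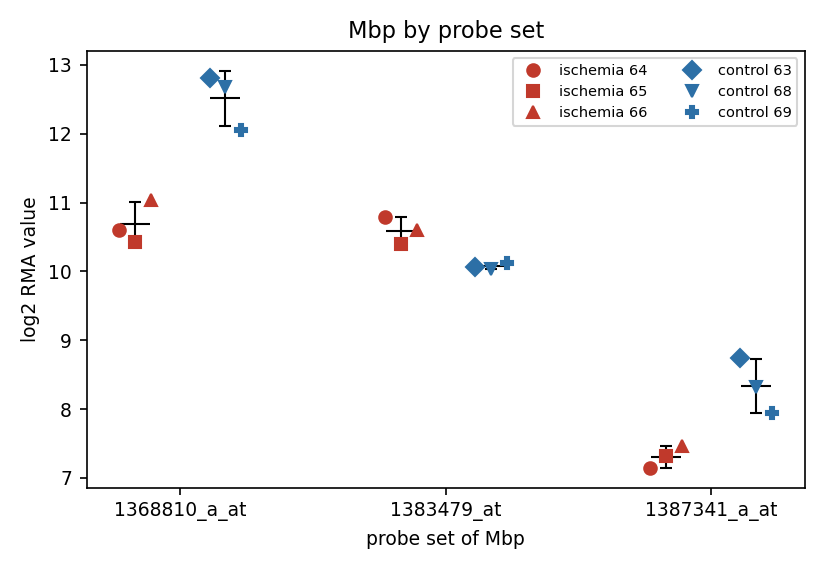
Log2 RMA value of the 3 probe sets of *Mbp* (x axis) in each rat, ischemia in red left of control in blue, with the mean and SD of the 3 rats. In 1368810_a_at and 1387341_a_at the ischemic rats lie below the controls, and in 1383479_at they lie above.

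In the other genes with several probe sets, all probe sets had a lower mean after ischemia. The further probe sets of *Mobp* gave -1.05 and, with overlapping groups, -1.07, about 1 log2 unit less than its brightest. Those of *Ermn* gave -2.68, from the probe set whose values the paper lists among its top falls, and -1.02. The second of *Cnp* gave -0.80 and, unlike its brightest, kept the groups clearly apart, with 9.94, 9.63 and 10.09 in ischemic rats 64, 65 and 66, against 10.96, 10.70 and 10.41 in control rats 63, 68 and 69. The second of *Cldn11* gave -1.02 without the overlap seen in its brightest.

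Rats of the same group differed from one another in these genes by more than in the median gene. The median SD over the 9 genes was 0.58 in the ischemic rats and 0.77 in the controls, and over all genes tested it was 0.15 in the ischemic rats and 0.19 in the controls. Control 63 had the highest control value in 9 of 9 genes, whereas it was highest in 15.6% of the genes tested. The full order 63, 68, 69 was found in 8 of the 9 genes and in 9.25% of the genes tested, *Opalin* being the exception. From control 63 to control 69 the difference ran between 0.56 log2 units (*Opalin*) and 2.03 (*Ermn*).

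In the ischemic group, rat 66 was highest in 7 of 9 genes (34.2% of the genes tested), with *Cnp* highest in rat 64 and *Opalin* in rat 65. Rat 64 was lowest in 6 of 9 (37.1% of the genes tested). The mean over the 9 genes was 7.81, 8.16 and 8.80 in ischemic rats 64, 65 and 66, against 10.47, 9.54 and 9.10 in control rats 63, 68 and 69. These means did not overlap, but control 63 was farther above control 69 than control 69 was above ischemic rat 66.

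Set pair by pair, the closest rats across the groups were ischemic 66 and control 69, whose mean absolute difference over the 9 genes was 0.51 log2 units. That was less than the distance between controls 63 and 69 (1.36) or between ischemic rats 64 and 66 (1.02). Over all genes tested the same pairs stood the other way, at 0.64 for ischemic 66 and control 69, 0.31 for controls 63 and 69, and 0.30 for ischemic rats 64 and 66. For the 9 genes, pairs between the groups ranged from 0.51 to 2.66, pairs within ischemia from 0.48 to 1.02 and pairs within control from 0.44 to 1.36, so the ranges overlapped. Over all genes tested they did not, with 0.46 to 0.66 between the groups, 0.20 to 0.30 within ischemia and 0.25 to 0.32 within control.

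**Figure D3:**
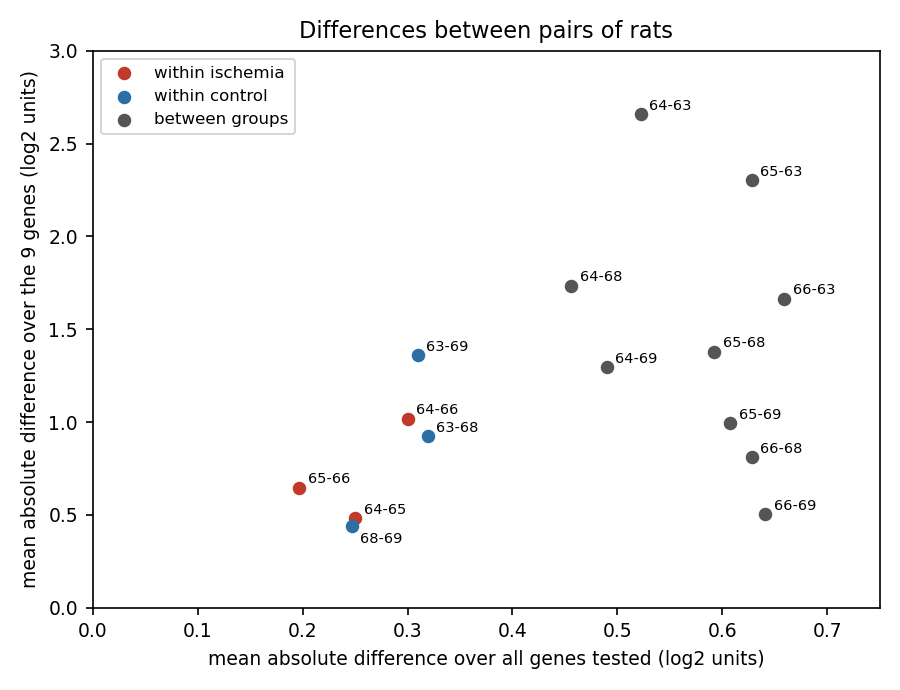
Each point is a pair of rats, named by their numbers (ischemic rat first between groups), placed by its mean absolute difference over all genes tested (x axis, log2 units) and over the 9 genes (y axis, log2 units). On the x axis all pairs between groups lie to the right of the pairs within a group. On the y axis the pair 66 and 69 (0.51) lies below the pairs 63 and 69 (1.36) and 64 and 66 (1.02).

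The share of a gene's sum of squares over the 6 rats that lay between the groups was 90.5% for *Mbp*, 79.9% for *Mobp* and 73% for *Ermn*, and 18.9% for *Mal*. The other 5 genes were between 56.4% (*Mag*) and 64% (*Mog*), near the median of 60.7% over all genes tested.

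The tested genes whose profile over the 6 arrays lay nearest to the mean profile of the 9, by mean absolute difference after centring each on its own mean, were *Plekhb1* (0.122 log2 units), *Septin4*, *Apod*, *Grm3*, *Bcas1*, *Pllp*, *Tubb4a* and *Cmtm5* (0.22). Of these 8, *Plekhb1*, *Apod*, *Bcas1* and *Pllp* (4 genes) were also on the list of other mature oligodendrocyte genes. *Plekhb1* read 8.20, 8.40 and 8.78 in ischemic rats 64, 65 and 66, against 10.62, 9.51 and 9.22 in control rats 63, 68 and 69. Nearest to *Mbp* alone were *Septin4* (0.16), *Mobp* (0.18) and *L1cam* (0.24), which encodes a neuronal and glial adhesion molecule. Because these genes were picked for their likeness over all 6 rats, the order of the rats and the difference between the groups in them follow from the choice, and no test of them is given. Among the 9 themselves, *Mag* was closest to their mean profile (0.114) and *Cnp* farthest from it (0.456).

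Other genes of the lineage were read from a wider list. Of 32 other genes of mature oligodendrocytes, 26 were measured and 20 tested, and 3 fell: *Tppp*, a tubulin-binding protein (-1.84, SE 0.41, adjusted p = 0.00952), *Evi2a* (-1.09, SE 0.21, adjusted p = 0.00458) and *Enpp6*, a choline phosphodiesterase (-1.02, SE 0.23, adjusted p = 0.00915). *Tppp* and *Enpp6* had 0 ischemic and 3 control arrays over the low-signal filter and so were tested only through their controls, whereas *Evi2a* was over it on all 6. *Evi2a* read 11.30, 10.89 and 10.47 in ischemic rats 64, 65 and 66, against 11.99, 11.90 and 12.04 in control rats 63, 68 and 69. Control 69 was thus its highest control and rat 66 its lowest ischemic rat, unlike in most of the 9 genes. *Tppp* missed the threshold without any 1 rat other than control 69, *Evi2a* without any other than ischemic rat 64, and *Enpp6* without any other than control 63 or control 68, with adjusted p-values of up to 0.036. None rose, with 1 higher and 11 lower at an unadjusted p under 0.05. The median log2 fold change of the 26 was -0.81, and -0.43 without control 63. The count of 3 was 0 in a fit over all probe sets and 9 with array weights, and with 1 rat left out it was between 0 (without ischemic rat 65) and 3 (without control 69), and 1 without any other rat. *Car2*, carbonic anhydrase 2, which many other cells make, was at 0.53 (adjusted p = 0.203) and *Sirt2* at -0.0093 (adjusted p = 0.96). Control 63 was the highest control in 21 of the 26, and 13 of the 26 had all ischemic rats below all controls, where 19.1% of all named genes did.

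The transcription factors of the lineage were mostly dim, and 5 of 9 measured were tested. None rose or fell, although 4 were lower and 0 higher at an unadjusted p under 0.05. *Myrf*, which switches on myelin genes, was at -0.77 (adjusted p = 0.0491), and *Tcf7l2*, a mediator of Wnt signals that other cells also make, was at 0.07 (adjusted p = 0.842). Of 9 measured genes of oligodendrocyte precursors, 3 were tested and *Cspg4*, the NG2 proteoglycan, rose (1.34, SE 0.24, adjusted p = 0.00381). That call was lost without ischemic rat 66 (adjusted p = 0.0147), control 63 (0.0129) or control 68 (0.0146). Pericytes and some macrophages make *Cspg4* as well. Of the 4 measured genes of Schwann cells, which make myelin in peripheral nerve, 2 were tested and neither passed (1 lower and 0 higher at an unadjusted p under 0.05), *Pmp22* being at -0.86 (adjusted p = 0.0139).

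Markers of the other brain cells were set beside the 9 genes. Control 63 was the highest control in 10 of 10 astrocyte markers, 11 of 11 endothelial markers and 6 of 8 mural markers. Its list mean was above the mean of controls 68 and 69 by 1.14 log2 units for the 9 genes, 0.79 for the other mature oligodendrocyte genes, 1.32 for astrocytes, 2.07 for endothelium and 0.96 for mural cells. For BAM markers control 63 was 0.76 log2 units below that mean (-0.76), and it was the highest control in 1 of 16. For microglia markers the difference was 0.0065. No value of control 63 was above 13.88, whereas the other arrays reached 14.98 to 15.03. The brightest BAM marker of controls 68 and 69, *Stab1*, read 14.76 and 14.72 there. The part of this narrower range of control 63 in its BAM values was not tested. Summed as linear signal, the 9 genes ranged from 4269 to 7221 in ischemic rats and from 10090 to 22700 in controls, the astrocyte markers from 4085 to 5019 in ischemic rats and from 2485 to 7396 in controls, and the endothelial markers from 15300 to 21050 in ischemic rats and from 7317 to 17600 in controls. The sums of the astrocyte and endothelial markers overlapped between the groups and that of the 9 genes did not. Those of the other mature oligodendrocyte genes (14040 to 14220 in ischemic rats and 18100 to 26390 in controls) and of the neuron markers (1449 to 1900 in ischemic rats and 2942 to 4414 in controls) did not overlap either. The brightest neuron markers in controls were *Gria2* and *Negr1*, described below. Among the endothelial markers *Slc2a1*, which rose, was the brightest on every array and so weighs most in that sum. Gene by gene, 7 of 11 endothelial and 7 of 10 astrocyte markers had a lower mean after ischemia. The part of these other cells in the values of the 9 genes was not tested.

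In the astrocyte and endothelial lists the ischemic rats did not lie below the controls. The mean of the astrocyte list was 8.16, 8.31 and 8.31 in ischemic rats 64, 65 and 66, against 9.15, 7.99 and 7.67 in control rats 63, 68 and 69, and ischemic rats lay above both controls 68 and 69. The mean of the endothelial list was 8.51, 8.80 and 8.86 in the ischemic rats in that order, against 10.26, 8.01 and 8.38 in the controls, with the same arrangement. Of 8 tested astrocyte markers, *Gfap*, the intermediate filament of astrocytes, rose (2.07, SE 0.41, adjusted p = 0.00563) and *Fgfr3* fell (-0.66, SE 0.15, adjusted p = 0.00957). Both calls depended on single rats, *Fgfr3* being lost without any 1 of the 6 (adjusted p of up to 0.0431) and *Gfap* without ischemic rat 65 or 66 or control 68 or 69 (up to 0.0248). Of 9 tested endothelial markers, *Slc2a1*, the glucose transporter of brain capillaries, rose (1.70, SE 0.24, adjusted p = 0.0014). Of 3 tested mural markers 0 rose or fell, and 0 had an unadjusted p under 0.05.

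By list mean, the neuron list was the one among the other cell types in which the ischemic rats lay below all controls. Its mean was 6.66, 6.48 and 6.36 in ischemic rats 64, 65 and 66, against 7.08, 6.94 and 7.04 in control rats 63, 68 and 69, and control 63 did not stand out. Of 7 tested markers, *Gria2*, a glutamate receptor subunit, fell (-3.75, SE 0.55, adjusted p = 0.00173), as did *Negr1*, an adhesion molecule (-2.77, SE 0.41, adjusted p = 0.00188), and 0 rose, with 0 higher at an unadjusted p under 0.05. Both had 1 ischemic and 3 control arrays over the low-signal filter. Without control 68, *Negr1* missed the threshold (adjusted p = 0.0108). Over the 15 measured neuron markers the median difference was -0.07 on the log2 scale, and 11 had a lower mean after ischemia. Only *Gria2*, *Negr1* and *Tubb3* (-0.34, adjusted p = 0.109) had all ischemic rats below all controls, 3 of 15, where 19.1% of all named genes did. The low list mean therefore rests largely on *Gria2* and *Negr1*, which the paper lists among the genes most lowered in these same arrays. The place of the list mean and of the neuron sum thus follows in part from the choice of genes. *Snap25* was at 0.15 (adjusted p = 0.713). The part of neuronal RNA in the values of the 9 genes was not tested.

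The cell type named by the labels was well represented in all rats. The paper reports, from flow cytometry of separate sorts, that most sorted cells carried both markers. It also reports a small share of granulocytes in the ischemic sort. All 16 measured BAM markers were above background on every array, and *Cd163* itself read 14.11, 14.02 and 13.38 in ischemic rats 64, 65 and 66, against 12.63, 13.86 and 13.41 in control rats 63, 68 and 69. The list was also lower after ischemia in most members, with a lower mean in 13 of 16, 7 lower and 1 higher at an unadjusted p under 0.05, and a median log2 fold change of -0.42. Control 63, on which no value was above 13.88, was lowest in *Cd163* and highest in all 9 myelin and oligodendrocyte genes. Without control 63, the median log2 fold change of the 9 genes was -1.26, and *Mbp* was the only one of them past the threshold.

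**Figure D4:**
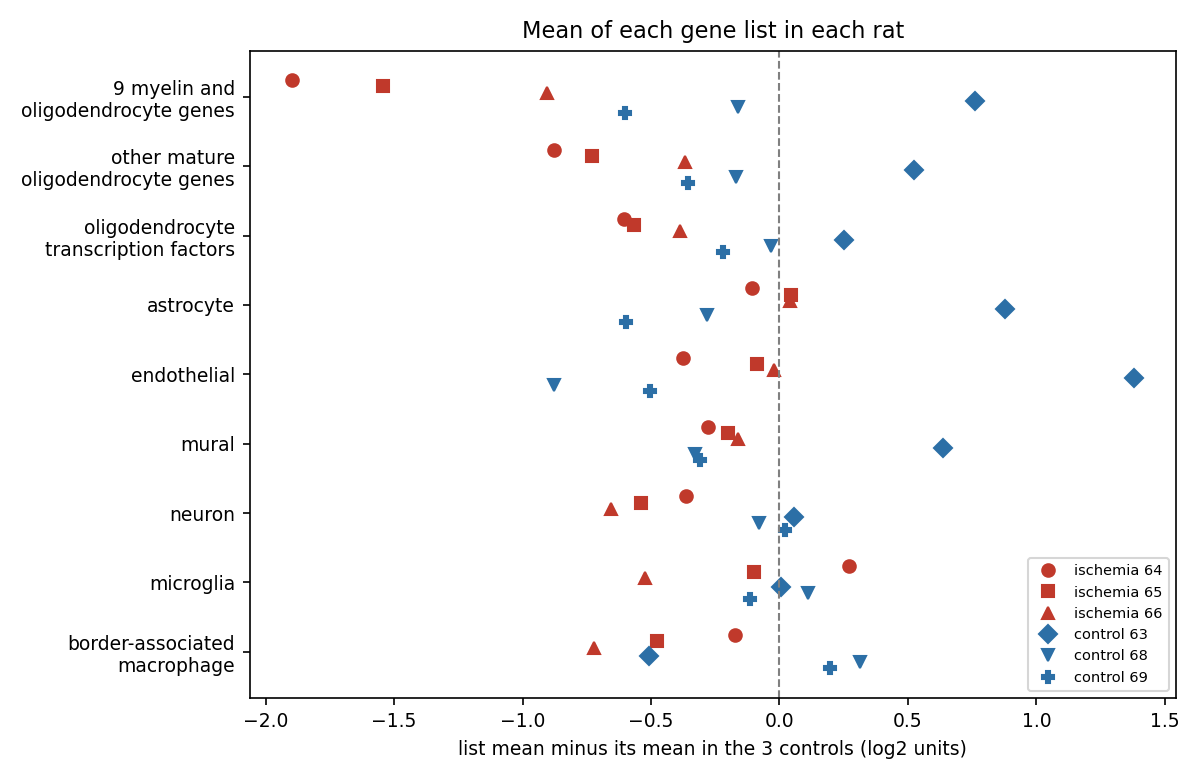
Mean log2 RMA value of each gene list in each rat, minus the mean of that list in the 3 controls (x axis, log2 units), with ischemia in red above control in blue for each list. Ischemic rats lie below every control in the 9 genes, and control 63 lies to the right in the glial and vascular lists and to the left in the BAM list (0.76 below the mean of controls 68 and 69).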

How the data were processed

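RNA of sorted CD11b+CD163+ cells from 6 rats (3 ischemia, 3 control) was hybridized to Affymetrix rat genome arrays after amplification with a kit for small inputs. The deposited values are log2 values, which the authors made with RMA (background correction, quantile normalization and summary over the probes of a set). The submitters' processing notes name limma 3.18 and R 3.3.1. They were used unchanged, and 0 columns of values were left unmapped. Of 31099 probe sets, 57 were controls, 20826 named 1 gene, 436 named several and 9780 named none. Arrays have no read depth, and precision is set by how many rats there were. The brightest probe set, a hybridization control, read 14.98 to 15.03 on 5 arrays, while no value of control 63 was above 13.88. Array medians lay between 7.82 and 7.90.

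Genes were represented by their probe set of highest mean and tested where 3 or more arrays were over 7.16 (40th percentile, control probe sets left out). The groups were compared with limma 3.58.1 in R 4.3.3 (lmFit, eBayes), a step also tested on simulated data. The level called background, 7.42, was the 90th percentile over 30 genes that other tissues express, among which *Apoa2* was highest (8.90). Genes to name were picked as the 9 genes, up to 4 genes of each list with the largest change past the test, up to 2 of highest mean not past it, and the 8 genes of nearest profile. Some genes that this rule picks, mostly ones not past the test, are not named. *Cd163* was added for its role. The 9 genes and all lists were chosen with earlier results of these data known. Alternatives covered the filter, probe sets, scaling, moderation, weights, thresholds and each rat left out. Promoters came from RefSeq (GRCr8), and words were searched on both strands.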

Additional observations from a re-analysis of the deposited data

How the results depend on the processing

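Under every alternative run, the 9 genes kept a negative median log2 fold change, between -2.24 (arrays centred on ribosomal protein genes) and -1.26 (without control 63), and leaving out 1 rat at a time gave -2.06 to -1.26. The number of the 9 that fell, 3 as reported, was 1 (*Mbp*) without the low-signal filter, with the mean of all probe sets of a gene, and with a fit over all probe sets. It was 5 with arrays centred on ribosomal protein genes (*Cldn11* and *Mog* added), 7 at an adjusted p under 0.05 and 1 (*Ermn*) with the added fold rule. Without moderation of the variance limma called 0 of the 9 (3 lower at an unadjusted p under 0.05) and 0 of all genes in either direction (1505 lower and 2973 higher at an unadjusted p under 0.05). Leaving out 1 rat gave 1 to 3, with *Mbp* the only one left without ischemic rat 65, control 63 or control 68.

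Over all genes, 595 fell as reported. That count was 340 with a fit over all probe sets, 906 centred on array medians, 930 after repeating the quantile normalization, 1350 when ribosomal protein genes set the scale, 1309 with array weights, 1377 at an adjusted p under 0.05 and 58 with the added fold rule, and 166 to 816 with 1 rat left out. The 1664 that rose became 409 centred on ribosomal protein genes, 2722 at an adjusted p under 0.05 and 162 with the added fold rule, and 681 to 1564 with 1 rat left out. Rises made up 73.7% of the calls, 60% centred on array medians, 59.9% with quantile normalization repeated and 23.3% centred on ribosomal protein genes, which moved the median of all genes tested to -0.31. The cause of these shifts was not tested.

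No paired analysis was possible because the rat numbers differ between the groups. With 3 rats a group, the 5 genes not past the threshold are not shown to be unchanged.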

Other observations

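The remaining marker lists were those of myeloid cells. Of the 16 tested genes on the BAM list, *Itgam* rose (2.24, SE 0.14, adjusted p = 0.000104). It encodes CD11b, by which the paper also sorted microglia, so it is not particular to BAMs. *Igfbp4*, an insulin-like growth factor binding protein, and *Colec12*, a scavenger receptor, fell (-2.68, SE 0.29, adjusted p = 6e-04, and -1.95, SE 0.27, adjusted p = 0.00143). Of 7 tested microglia markers, *Gpr84*, a receptor for medium-chain fatty acids, rose (2.30, SE 0.21, adjusted p = 4e-04) and *P2ry12*, a purinergic receptor, fell (-1.78, SE 0.23, adjusted p = 0.00109). *P2ry12* read 10.62, 9.97 and 9.89 in ischemic rats 64, 65 and 66, against 11.67, 12.23 and 11.92 in control rats 63, 68 and 69, so control 63 was the lowest of the controls there. Of 6 tested granulocyte markers, *S100a8* (3.36, SE 0.37, adjusted p = 0.000621), *Lcn2* (3.34, SE 0.38, adjusted p = 0.000713) and *Mmp9* (2.86, SE 0.54, adjusted p = 0.00474) rose, the last not without ischemic rat 66 or without any 1 control (adjusted p of up to 0.0231). These 3 were below background in every control and passed the low-signal filter through the ischemic arrays (3 ischemic and 0 control arrays over it), so the sizes of their differences are set against a group at background. The other 3 tested were not past the threshold, among them *S100a9* (2.19, adjusted p = 0.0119) and *Cxcr2*. *Cxcr2* was above background on every array and went the other way (-0.50, adjusted p = 0.179). At an unadjusted p under 0.05, 5 of the 6 were higher and 0 lower. *S100a8* read 8.24, 8.34 and 9.44 in ischemic rats 64, 65 and 66, against 5.89, 5.25 and 4.80 in control rats 63, 68 and 69. Over the 8 measured granulocyte markers, rat 66 was the highest ischemic rat in 2 and control 63 the highest control in 3.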
